A study of Arabidopsis thaliana with 8 samples.

Results

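The root stem cell niche is kept by a small set of transcription factors, and 9 of their genes are described here: SHR (AT4G37650), SCR (AT3G54220), JKD (AT5G03150), MGP (AT1G03840), PLT1 (AT3G20840), PLT2 (AT1G51190), PLT3 (AT5G10510), BBM (AT5G17430, also called PLT4) and WOX5 (AT3G11260). They were taken by locus identifier from a table of 40246 features, each locus had 1 row, and all 9 were among the 20262 features with enough counts to be tested. Roots of 7-day-old Arabidopsis thaliana seedlings in the Col-0 background were compared between wild type and bzr1-D, after 24 h, from day 6 on, at an adequate (0.625 mM) or a low (1 µM) supply of phosphate (Pi). In bzr1-D a dominant allele makes BZR1, the transcription factor through which brassinosteroids act on their target genes, more active. Each of the 4 groups (wild type at adequate Pi, wild type at low Pi, bzr1-D at adequate Pi, bzr1-D at low Pi) had 2 libraries of polyadenylated RNA from whole roots, numbered Exp 1 and Exp 2 and described in the labels as biological replicates.

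At the root tip a few rarely dividing cells, the quiescent centre, keep the surrounding stem cells undifferentiated. SHR is made in the stele and moves outward, where it acts with SCR and with the zinc finger proteins JKD and MGP to set the quiescent centre and the endodermis. The PLETHORA (PLT) factors, of the AP2 family, follow the auxin maximum and set how long cells stay in the meristem, whereas WOX5 is made in the quiescent centre and keeps the distal stem cells.

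None of the 9 genes passed the test for a response to low Pi in either genotype. Between the genotypes, PLT2 and PLT3 were the members with the lowest levels in bzr1-D relative to wild type, with log2 fold changes averaged over Pi supply of -0.59 ± 0.21 (SE) and -0.42 ± 0.13. Both were lower in bzr1-D in 4 of 4 comparisons within an Exp number, while SHR and MGP were higher in 4 of 4. The share of all features with the same sign in 4 of 4 was not counted. Without the Exp number in the fit, no member was called (edgeR quasi-likelihood test, Benjamini-Hochberg adjusted p under 0.05 over all 20262 features). With the Exp number as a replicate block, 5 of 9 were called: PLT2 and PLT3 lower in bzr1-D, and SHR, JKD and MGP higher. Counts of calls are set beside the share of all features called in the same test, which was 5.37% without the block and 15.3% with it.

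Total counts per library ran from 15947895 to 22150569, so that 1 CPM (the normalised level used here, counts over the TMM-scaled library size) stood for 16.1 to 22.2 counts. Endodermis markers (8 of 8) and root hair markers (5 of 5) were measured in the root libraries, none of them at 0. The endodermis marker ESB1 was barely measured, at 0.16 to 0.61 CPM. Genes of brassinosteroid synthesis that BZR1 is known to repress, DWF4, CPD and BR6OX2, were lower in bzr1-D averaged over Pi, with log2 fold changes of -0.96, -0.78 and -1.02 (edgeR adjusted p of 0.0439, 0.0123 and 8.58e-04). They were the 3 genes called without the Exp number in the fit among 7 genes of brassinosteroid feedback, with it BRI1 was also called lower and BAS1 higher, and ROT3 and DET2 were called in neither. With a library left out, the calls of DWF4, CPD and BR6OX2 were kept in 1, 6 and 8 of 8 fits without the Exp number. With the Exp number in the fit they were kept in all 8, but those of BRI1 and BAS1 in only 4 and 2 of 8. The p-values rest on 2 libraries a group, with the spread pooled over the groups. Without the Exp number in the fit, this is the spread between the libraries of a group. With it, it is the spread left after a shift between the Exp numbers common to the groups. In bulk roots, fewer cells of a type and less RNA per cell cannot be told apart.

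To set the genes side by side, levels were divided by the exon length of the RefSeq gene models, which are not the models counted. For SHR, SCR and WOX5 this length (2173, 2778 and 1052 bases) is longer than the gene's span in the deposited table. Close ranks, such as those of SCR and JKD or of BBM and PLT2, are thus not settled. The order of mean levels over the 8 libraries was SCR (21.2 CPM per kb), JKD (21.1), SHR (17.7), PLT3 (12.4), MGP (10.9), PLT1 (5.5), BBM (3.29), PLT2 (3.11) and WOX5 (1.60). The ranges over libraries of neighbours in this order overlapped, except between MGP, at 8.16 CPM per kb or more, and PLT1, at 6.79 or less. WOX5, active in very few cells, stood on 26 to 38 counts a library, and PLT2 on 63 to 177. The other 7 members had between 106 counts (BBM) and 1242 counts (SCR) in a library. In the deposited table's TAIR10 coordinates, SHR on chromosome 4 (17691786 to 17693760), SCR on chromosome 3 (20070158 to 20072780), JKD on chromosome 5 (745644 to 749007) and MGP on chromosome 1 (967503 to 970130) made up the first arm. The PLETHORA genes were PLT1 on chromosome 3 (7300675 to 7303693), PLT2 on chromosome 1 (18977284 to 18980618), PLT3 on chromosome 5 (3315529 to 3320008) and BBM on chromosome 5 (5742542 to 5745568), and the last member was WOX5 on chromosome 3 (3527575 to 3528433). No member overlapped a neighbouring feature.

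**Figure D1:**
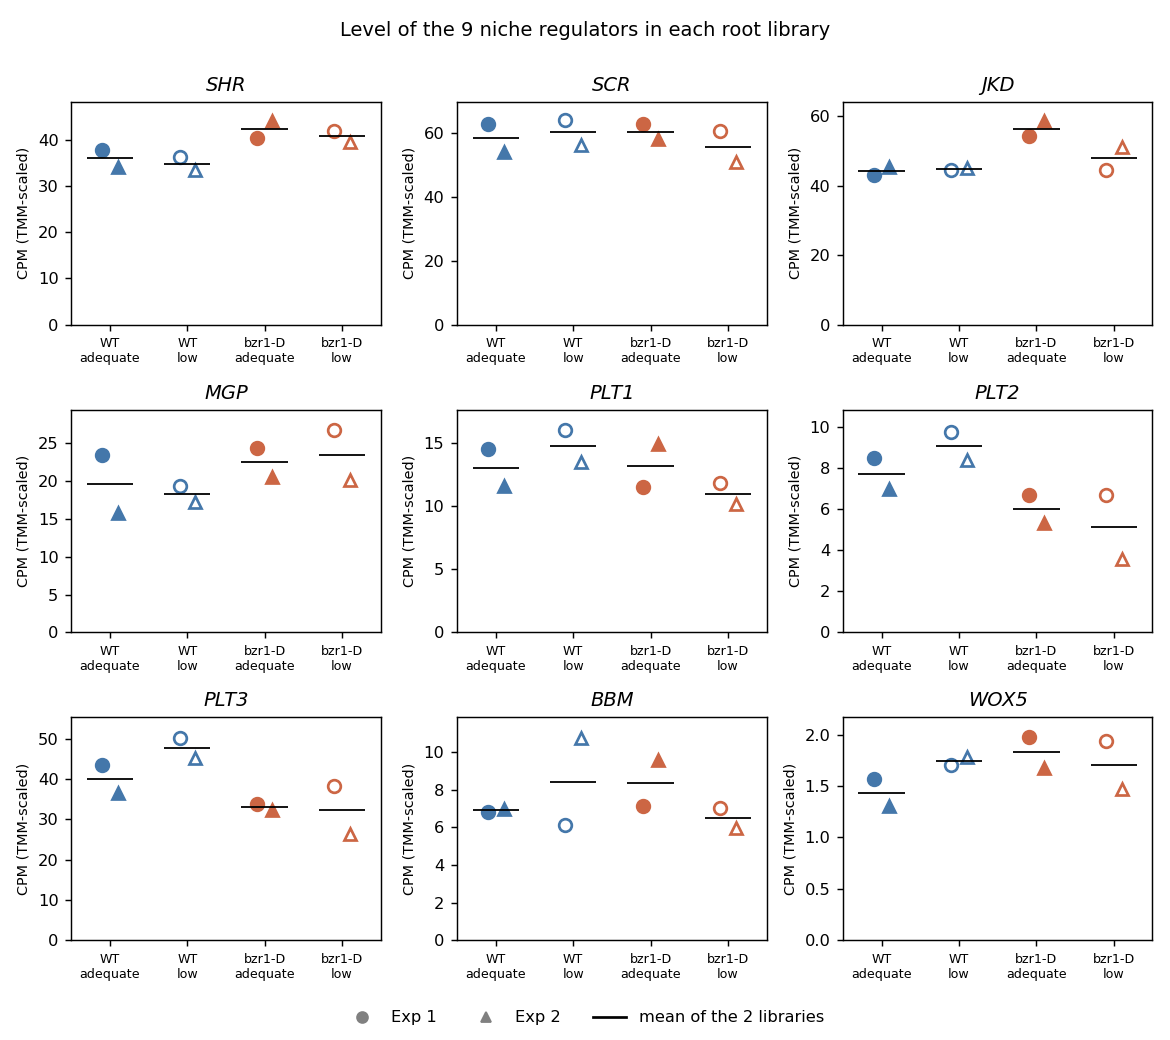
Levels of the 9 regulators in CPM (TMM-scaled, axes from 0) in each of the 8 root libraries. Blue is wild type, orange bzr1-D, filled symbols adequate Pi, open symbols low Pi, circles Exp 1, triangles Exp 2, and the line is the mean of the 2 libraries. The 4 bzr1-D libraries lie below the 4 wild-type libraries for PLT2 and above them for SHR. The genotypes overlap for the other 7 genes, and the share of all features without overlap was not counted.

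SHR, the GRAS factor that starts the radial programme, was slightly higher in bzr1-D. In wild type it stood at 37.8 CPM (Exp 1) and 34.1 CPM (Exp 2) at adequate Pi and at 36.2 and 33.4 CPM at low Pi. For bzr1-D the levels were 40.3 and 44.1 CPM at adequate Pi and 41.9 and 39.5 CPM at low Pi. The genotypes did not overlap, with all 4 wild-type libraries below all 4 bzr1-D libraries. Such separation was also found in listed genes called in neither fit, such as TPL and CYCD3;3, and its share over all features was not counted. The log2 fold change of SHR averaged over Pi was 0.23 ± 0.08 (SE), with an edgeR adjusted p of 0.207 and, with the replicate block, of 0.0381. The genotype difference was the same at both supplies, 0.23 at adequate and 0.23 at low Pi.

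SCR, the GRAS partner that holds SHR in the nucleus, had close levels in all groups. Wild type had 62.9 and 54.0 CPM at adequate Pi and 64.1 and 56.5 CPM at low Pi. The bzr1-D libraries had 63.0 and 58.2 CPM at adequate Pi and 60.6 and 50.9 CPM at low Pi. The genotypes overlapped, and Exp 1 was above Exp 2 in each group. The log2 fold change between the genotypes averaged over Pi was -0.03, with a 95% interval from -0.26 to 0.20 (edgeR adjusted p = 0.959).

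JKD, a zinc finger protein that keeps SHR within its layer and is needed for SCR expression, had its highest levels in bzr1-D at adequate Pi. Wild type had 43.1 and 45.5 CPM at adequate Pi and 44.7 and 45.2 CPM at low Pi. The bzr1-D libraries had 54.2 and 58.7 CPM at adequate Pi, but 44.5 and 51.3 CPM at low Pi. Both bzr1-D libraries at adequate Pi were above every wild-type library, while at low Pi the library of Exp 1 was within the wild-type range. At adequate Pi the log2 fold change was 0.35 ± 0.11 without the block (edgeR adjusted p = 0.292) and 0.35 ± 0.08 with it (adjusted p = 0.0257). JKD was the only member called there with the block, against 7.4% of all features, and no member was called without the block, against 1.99%. The call was lost when any of the 4 libraries at adequate Pi was left out, with adjusted p of up to 0.290. At low Pi the log2 fold change was 0.09 with a 95% interval from -0.17 to 0.36, and the difference between the supplies, -0.26 (95% interval from -0.63 to 0.12), did not pass (edgeR adjusted p = 1.00).

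Of the 9 members, JKD alone held a match to a brassinosteroid response element in the 300 bases from 250 before to 50 after the RefSeq 5′ end of the gene. The motifs searched on both strands were the brassinosteroid response element as CGTGTG or CGTGCG, to which BZR1 is known to bind, the G-box CACGTG, and GNATATNC, the site known for the Pi starvation factor PHR1. In JKD, a G-box whose first base lies at position -136 from the 5′ end ran into CGTGTG at position -134, so that both matches share letters. PLT1 held GTATATTC at position -203, and the other 7 members held no match. Of 27443 protein-coding promoters of the same length, 6.52% held CGTGTG, 1.96% CGTGCG and 8.19% either form of the brassinosteroid response element. The G-box was held by 7.68% and GNATATNC by 6.25%. The 250 bases before the 5′ end are shown for these 2 genes on the plus strand of TAIR10.1 (genome of RefSeq), with the matches in capitals, at chr5:745171-745420 for JKD and chr3:7300194-7300443 for PLT1.
JKD: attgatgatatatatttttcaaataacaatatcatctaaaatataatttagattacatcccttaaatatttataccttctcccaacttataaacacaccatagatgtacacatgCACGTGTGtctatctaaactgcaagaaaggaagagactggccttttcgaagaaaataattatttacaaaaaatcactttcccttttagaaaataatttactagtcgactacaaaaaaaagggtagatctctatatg
PLT1: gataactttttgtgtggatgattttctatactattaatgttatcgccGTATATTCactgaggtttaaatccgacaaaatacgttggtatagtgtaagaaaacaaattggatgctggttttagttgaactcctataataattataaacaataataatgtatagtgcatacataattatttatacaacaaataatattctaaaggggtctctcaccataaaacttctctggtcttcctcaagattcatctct

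MGP, a zinc finger protein whose gene is a direct target of SHR and SCR, was higher in bzr1-D within each Exp number. Wild type had 23.3 and 15.7 CPM at adequate Pi and 19.3 and 17.1 CPM at low Pi. MGP in bzr1-D had 24.3 and 20.5 CPM at adequate Pi and 26.7 and 20.06 CPM at low Pi. Exp 1 was above Exp 2 in all 4 groups, so the genotypes overlap when the numbers are pooled and are separate within each Exp number. Averaged over Pi, the log2 fold change was 0.28 ± 0.16 (edgeR adjusted p = 0.510) and with the replicate block 0.28 ± 0.08 (adjusted p = 0.0374).

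The calls of SHR, JKD and MGP averaged over Pi were less stable than those of PLT2 and PLT3. When each of the 8 libraries was left out in turn from the fit with the block, SHR stayed called in 2 fits, JKD in 2 and MGP in 3, with adjusted p of up to 0.227, 0.151 and 0.242. The libraries that could be left out were bzr1-D at adequate Pi Exp 1 and at low Pi Exp 2 for SHR, both Exp 1 libraries at low Pi for JKD, and wild type at adequate Pi Exp 1 and both Exp 2 libraries at low Pi for MGP. DESeq2 with the replicate block gave adjusted p of 0.144, 0.106 and 0.159 for these 3 genes and called none of them. Limma-voom with the block gave 0.0467, 0.0324 and 0.0421.

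PLT1 and PLT2 are the PLETHORA genes with the strongest known part in root stem cell maintenance, and act redundantly. PLT1 had 14.5 and 11.6 CPM in wild type at adequate Pi and 16.1 and 13.5 CPM at low Pi. For bzr1-D the levels were 11.5 and 14.9 CPM at adequate Pi and 11.8 and 10.2 CPM at low Pi. At adequate Pi the Exp numbers went opposite ways, with bzr1-D lower in Exp 1 and higher in Exp 2, whereas at low Pi both bzr1-D libraries were below both wild-type libraries. The log2 fold change at low Pi was -0.42 ± 0.19 (edgeR adjusted p = 0.516, and 0.154 with the block), and averaged over Pi it was -0.20 with a 95% interval from -0.52 to 0.12.

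PLT2 was lower in bzr1-D at both supplies. Wild type had 8.51 and 6.97 CPM at adequate Pi and 9.74 and 8.38 CPM at low Pi. The bzr1-D libraries had 6.71 and 5.34 CPM at adequate Pi and 6.69 and 3.56 CPM at low Pi. All 4 bzr1-D libraries were below all 4 wild-type libraries, and the library of Exp 2 at low Pi was the lowest. At low Pi the log2 fold change was -0.82 ± 0.30 (edgeR adjusted p = 0.341) and with the block -0.84 ± 0.18 (adjusted p = 0.0127). Averaged over Pi with the block it was -0.60 ± 0.13 (adjusted p = 0.00696, against 0.214 without the block).

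PLT3, which acts with PLT1 and PLT2 in the embryo and root and whose row is the transcript AT5G10510.2 (also named AIL6), followed PLT2. Wild type had 43.5 and 36.7 CPM at adequate Pi and 50.1 and 45.4 CPM at low Pi. The bzr1-D libraries had 33.9 and 32.2 CPM at adequate Pi and 38.3 and 26.3 CPM at low Pi. The genotypes were separate at each supply, and overlapped only where the bzr1-D library of Exp 1 at low Pi passed the wild-type library of Exp 2 at adequate Pi. At low Pi the log2 fold change was -0.56 ± 0.19 (edgeR adjusted p = 0.278) and with the block -0.58 ± 0.11 (adjusted p = 0.00657). Averaged over Pi with the block it was -0.42 ± 0.08 (adjusted p = 0.0029, against 0.154 without it).

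PLT2 and PLT3 were the 2 members called at low Pi with the block, against 9.0% of all features, and none was called without it, against 2.12%. Averaged over Pi, their calls with the block were kept in all 8 fits that left out a library, with adjusted p of up to 0.0461 for PLT2 and 0.0277 for PLT3, and DESeq2 with the block also called them (adjusted p of 0.0275 and 0.00235). At low Pi, PLT2 was no longer called when the Exp 2 library of either genotype at that supply was left out (adjusted p of up to 0.126), nor PLT3 when that of bzr1-D was (0.0622). With the block, the log2 fold change of PLT2 at low Pi was -0.56 without that bzr1-D library and -1.20 without the one of Exp 1, and that of PLT3 was -0.39 and -0.78. Without the block they were -0.43 and -1.34 for PLT2 and -0.31 and -0.86 for PLT3. At adequate Pi neither passed, with log2 fold changes of -0.36 (95% interval from -1.05 to 0.34) and -0.28 (95% interval from -0.72 to 0.16). The change of the genotype difference between the supplies, -0.46 for PLT2 and -0.29 for PLT3, did not pass (edgeR adjusted p of 1.00 for both). The log2 profiles of PLT2 and PLT3 over the 8 libraries were nearer to each other than to any other member, with a root mean square difference of 0.165.

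Because PLT2 and PLT3 were lower together, the 250 bases before the RefSeq 5′ end of each are shown (plus strand, TAIR10.1), at chr1:18976926-18977175 for PLT2 and chr5:3315151-3315400 for PLT3. Neither holds any of the motifs searched, so no letter is in capitals.
PLT2: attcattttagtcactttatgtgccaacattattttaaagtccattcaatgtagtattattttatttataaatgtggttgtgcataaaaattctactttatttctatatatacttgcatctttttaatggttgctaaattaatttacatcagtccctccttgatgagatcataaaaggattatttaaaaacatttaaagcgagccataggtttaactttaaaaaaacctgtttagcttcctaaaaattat
PLT3: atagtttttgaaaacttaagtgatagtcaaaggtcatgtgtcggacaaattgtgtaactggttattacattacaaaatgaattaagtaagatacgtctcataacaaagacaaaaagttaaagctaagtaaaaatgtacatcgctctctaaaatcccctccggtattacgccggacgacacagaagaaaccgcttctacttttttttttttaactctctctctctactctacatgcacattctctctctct

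BBM, a PLETHORA gene best known for inducing embryos from vegetative tissue, had no difference beyond its spread. Wild type had 6.84 and 6.97 CPM at adequate Pi and 6.11 and 10.8 CPM at low Pi. BBM in bzr1-D had 7.12 and 9.57 CPM at adequate Pi and 7.05 and 5.99 CPM at low Pi. The highest and the second lowest library were both wild type at low Pi. Its log2 fold change between the genotypes averaged over Pi was -0.05, with a 95% interval from -0.52 to 0.42.

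WOX5, the homeobox gene of the quiescent centre, was the least abundant member. Wild type had 1.57 and 1.3 CPM at adequate Pi and 1.71 and 1.78 CPM at low Pi. WOX5 in bzr1-D had 1.98 and 1.68 CPM at adequate Pi and 1.94 and 1.47 CPM at low Pi. The genotypes overlapped. On these few counts, the genotype difference averaged over Pi had a 95% interval from -0.29 to 0.61 on the log2 scale, which holds 0.

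**Figure D2:**
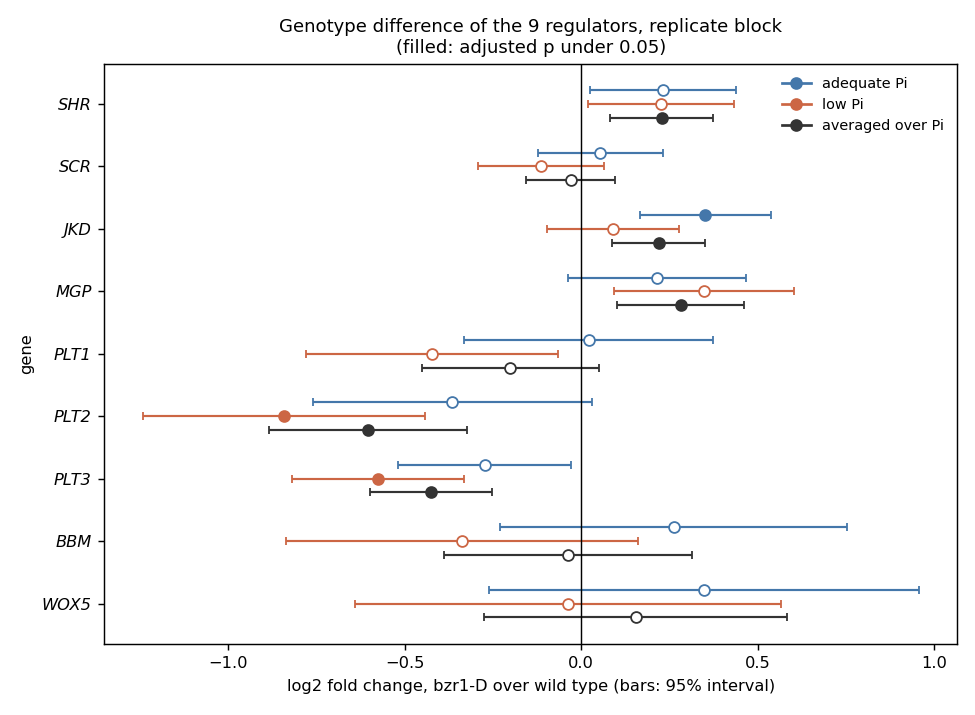
Log2 fold change of bzr1-D over wild type for the 9 regulators, at adequate Pi (blue), low Pi (orange) and averaged over Pi (black), from the edgeR fit with the replicate block. Bars are 95% intervals and filled points have an adjusted p under 0.05. Averaged over Pi, PLT2 (-0.60) and PLT3 (-0.42) lie below 0 and SHR (0.23), JKD (0.22) and MGP (0.28) above it.

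With the block, 3 of 9 members were called higher in bzr1-D averaged over Pi, where 6.77% of all features were, and 2 of 9 lower, where 8.48% were. The median of the 9 log2 fold changes was -0.03 without the block beside 0.01 over all features, with SHR, JKD, MGP and WOX5 above 0 and SCR and the PLETHORA genes below it. Genes called between the genotypes were unevenly spread along the chromosomes. Of the other tested features within 1 Mb, the block fit called 7.54% around PLT2, 6.48% around PLT3, 7.97% around SHR and 7.60% around JKD. Around MGP it called 14.3%, near the 15.3% of all features. In the 1 Mb windows of chromosome 1 starting at 0, 1, 2 and 3 Mb, the share was 13.1%, 16.0%, 20.4% and 26.1%. MGP lies near the end of the window starting at 0 Mb. Around the members not called, the share was 6.93% for SCR, 17.1% for PLT1, 13.3% for BBM and 17.8% for WOX5.

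Markers of other root cells were read beside these differences. The summed level of 12 dividing cell markers, such as B-type cyclins, was 244 to 298 CPM in wild type and 271 to 321 CPM in bzr1-D, and none of the 12 was called between the genotypes (median log2 fold change 0.16). For 5 root cap markers the sum was 65.7 to 85.5 CPM in wild type and 62.7 to 72.2 CPM in bzr1-D, with CEL5 called lower with the block averaged over Pi (-0.37, adjusted p = 0.0026) and BFN1 called higher with the block at low Pi (0.68, adjusted p = 0.0144). The BFN1 call was lost without the Exp 2 library of either genotype at low Pi (adjusted p of up to 0.157). The 8 endodermis markers summed to 383 to 533 CPM in wild type and 411 to 499 CPM in bzr1-D, with MYB36, a regulator of the Casparian strip, called lower with the block averaged over Pi (-0.54, adjusted p = 3.65e-04). CASP4 was called higher with the block at low Pi (0.40, adjusted p = 0.0378), a call kept in 2 of 8 fits that left out a library (adjusted p of up to 0.235), and the median of the 8 genes averaged over Pi was 0.05. The 5 root hair markers, none of them called, summed to 210 to 339 CPM in wild type and 87.2 to 373 CPM in bzr1-D. The 10 shoot markers, photosynthesis genes, summed to 52.2 to 89.4 CPM in wild type and 90.3 to 103 CPM in bzr1-D, without overlap, with RCA (0.41) and GAPA (0.68) called higher with the block. With a library left out, RCA kept its call in 4 of 8 fits (adjusted p of up to 0.0947) and GAPA in 3 of 8 (up to 0.210). Averaged over Pi, the block fit called 25.5% of the other tested features within 1 Mb of MYB36, 26.3% of CEL5 and 27.6% of BFN1. Around CASP4, RCA and GAPA the share was 5.96%, 6.25% and 8.98%, beside 15.3% of all features. No marker was at 0 in both libraries of a group. The part of these markers in the members' differences was not tested.

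Low Pi for 24 h gave no call for any member. In wild type the log2 fold changes of low over adequate Pi lay between -0.10 (MGP) and 0.29 (BBM), with 7 of 9 above 0, and the 95% intervals reached from -0.63 to 0.95. In bzr1-D they lay between -0.35 (BBM) and 0.06 (MGP), with 1 of 9 above 0, and the intervals reached from -1.02 to 0.59. The share of all features called was 0.0% in both genotypes without the block, where 331 features in wild type and 253 in bzr1-D had an unadjusted p under 0.05. Both counts are below a share of 0.05 of the 20262 features, the share met when nothing differs, so the lack of calls in that fit says little. With the block these counts were 1095 and 850. The share called was then 0.0839% and 0.0197%, so that few genes of any kind passed. The 6 low Pi markers, which include the sensor gene SPX1 and the lipid synthesis genes SQD2 and MGD3, had median log2 fold changes of 1.39 in wild type and 2.17 in bzr1-D, none of them called in either fit.

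The members nearest to a call for low Pi were PLT3 in wild type, at 0.26 ± 0.11 with the block (edgeR unadjusted p = 0.0378, adjusted p = 0.891), and JKD in bzr1-D, at -0.24 ± 0.08 (unadjusted p = 0.0162, adjusted p = 0.993). PLT3 was higher at low Pi in both Exp numbers of wild type, by 0.20 and 0.31, and JKD lower in both of bzr1-D, by 0.28 and 0.19 on the log2 scale. In wild type the narrowest intervals with the block were those of SCR, from -0.13 to 0.22, and JKD, from -0.16 to 0.21. Averaged over the genotypes, 0.0% of all features were called without the block and 0.148% with it, and no member. The difference of the Pi responses between the genotypes ran from -0.64 (BBM) to 0.16 (MGP), with 8 of 9 members below 0, and was called for no member and for 0.0% of all features in either fit.

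**Figure D3:**
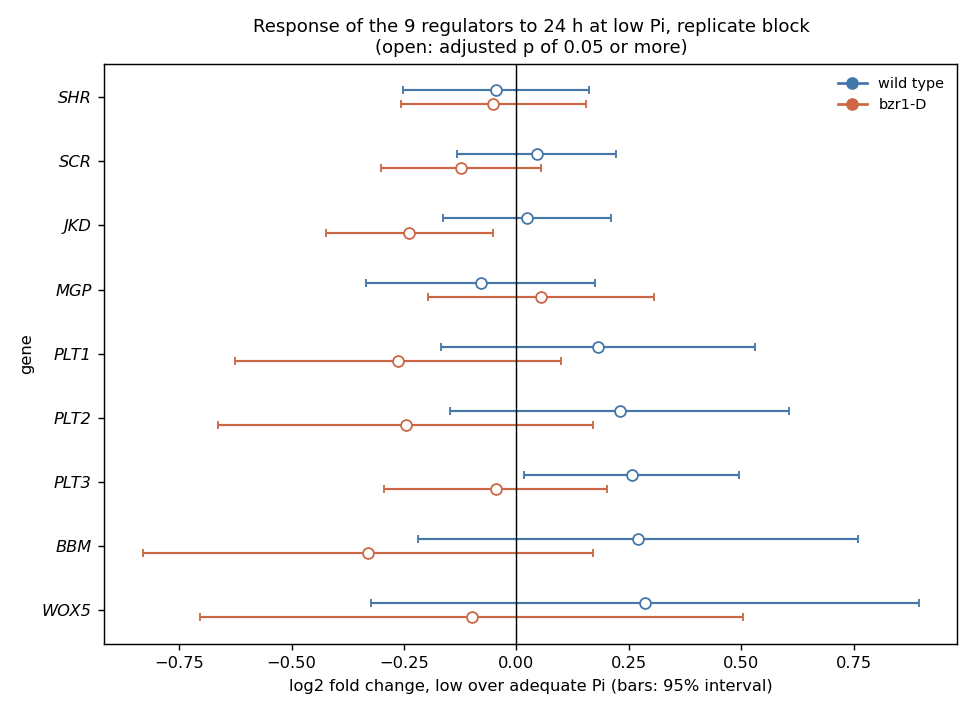
Log2 fold change of low over adequate Pi for the 9 regulators in wild type (blue) and bzr1-D (orange), from the edgeR fit with the replicate block, with 95% intervals. All points are open since none had an adjusted p under 0.05, and only the intervals of PLT3 in wild type and JKD in bzr1-D leave out 0.

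The pathways around the members were read from 3 lists, and no gene of them was called for low Pi in either genotype. In the SHR and SCR network, 8 genes were tested, with a median genotype log2 fold change averaged over Pi of -0.04 beside 0.01 for all features. PHV, a class III HD-ZIP factor of the stele that microRNA from the endodermis restricts, was lower in bzr1-D. It had 33.8, 30.6, 35.2 and 31.3 CPM in wild type and 24.6, 24.8, 23.9 and 22.0 CPM in bzr1-D (adequate Exp 1, adequate Exp 2, low Exp 1, low Exp 2). The groups were far apart, with a log2 fold change of -0.46 ± 0.08 (edgeR adjusted p = 0.0221), and 29.1% of the other tested features within 1 Mb of PHV were called with the block. With a library left out, the PHV call was kept in 1 of 8 fits without the block (adjusted p of up to 0.09) and in all 8 with it. Its close homologue PHB was at -0.01 with the block (95% interval from -0.17 to 0.15), and the cyclin gene CYCD6;1, a target of SHR and SCR in the ground tissue stem cells, at -0.43 (adjusted p = 0.289).

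Of 6 genes tested around the PLETHORA factors, with a median of -0.23, TPST was lower in bzr1-D in both fits. TPST is the tyrosylprotein sulfotransferase that activates the RGF peptides, which in turn keep PLETHORA protein levels up. It had 30.2, 29.5, 29.1 and 31.1 CPM in wild type and 19.9, 20.9, 22.1 and 19.4 CPM in bzr1-D, in the same order of libraries. All 4 bzr1-D libraries lay below wild type, with a log2 fold change of -0.54 ± 0.08 (edgeR adjusted p = 0.0099). With a library left out, the call was kept in 6 of 8 fits without the block (adjusted p of up to 0.0558) and in all 8 with it. RGF2, which encodes such a peptide, had 2.48, 3.33, 2.81 and 2.70 CPM in wild type and 1.66, 2.17, 1.94 and 1.75 CPM in bzr1-D, and was called with the block only (-0.59 ± 0.18, adjusted p = 0.0456). The RGF2 call was kept in 1 of 8 fits that left out a library, that without bzr1-D at low Pi Exp 1, with adjusted p of up to 0.235 in the others. Within 1 Mb, the share of features called with the block was 23.4% around TPST and 27.3% around RGF2.

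ANT, an AP2 factor of the same subfamily as the PLETHORA genes that promotes organ growth, went the other way from PLT2 and PLT3. It had 6.38, 3.24, 6.72 and 3.35 CPM in wild type and 10.3, 6.15, 10.8 and 6.44 CPM in bzr1-D. Exp 1 was well above Exp 2 in each group, and bzr1-D was above wild type in each Exp number. The call came with the block only, at 0.79 ± 0.11 (edgeR adjusted p = 4.23e-04) against 0.78 ± 0.33 (adjusted p = 0.320) without it. PLT7, RGF3 and UPB1 were not called.

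The largest difference among the pathway genes was in the group of 13 genes tested for the quiescent centre and the distal stem cells. MYB56 (AT5G17800, chromosome 5, 5877189 to 5879331), the R2R3 MYB factor also named BRAVO, is known to hold back division of the quiescent centre and to be repressed by brassinosteroid signalling. It had 8.41, 10.97, 8.31 and 10.7 CPM in wild type and 2.86, 3.04, 3.01 and 3.22 CPM in bzr1-D. Every bzr1-D library was far below every wild-type library, and the supplies were alike. The log2 fold change was -1.71 ± 0.21 at adequate Pi (edgeR adjusted p = 0.0081), -1.61 ± 0.21 at low Pi (adjusted p = 0.0102) and -1.66 ± 0.15 averaged (adjusted p = 8.64e-04). Averaged over Pi, the call was kept when each of the 8 libraries was left out, with and without the block, while at each supply alone it was kept in 5 of 8 such fits without the block (adjusted p of up to 0.0951) and in 8 with it. Around MYB56, 14.0% of the other tested features within 1 Mb were called with the block averaged over Pi. That share averages unlike sides. In the 1 Mb windows of chromosome 5 starting at 4, 5, 6 and 7 Mb it was 5.15%, 9.91%, 21.3% and 31.3%. MYB56 lies near the end of the window starting at 5 Mb.

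Other genes of that group had smaller differences, called with the block only. BDL, an Aux/IAA repressor of auxin response, was at 0.34 ± 0.08 (adjusted p = 0.0112), and its partner MP, an auxin response factor, was called at low Pi only, at -0.38 ± 0.11 (adjusted p = 0.0482). BRL3, a brassinosteroid receptor of the vasculature, was at -0.28 ± 0.09 (adjusted p = 0.0468). With a library left out, the BDL call was lost in 3 of 8 fits, without either wild-type library or the bzr1-D library of Exp 1 at adequate Pi (adjusted p of up to 0.0708). MP kept its call in 2 of 8, those without an Exp 1 library at low Pi (up to 0.367), and BRL3 in 3 of 8, those without bzr1-D at adequate Pi Exp 1 or an Exp 2 library at low Pi (up to 0.221). Within 1 Mb, the share of features called with the block averaged over Pi was 15.5% around BDL, 24.1% around MP and 18.9% around BRL3. The median over the 13 genes was -0.16. CLV1 and ACR4, receptor kinases that restrict the distal stem cells, were at 0.01 (95% interval from -0.13 to 0.15) and 0.08 (from -0.17 to 0.34).

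**Figure D4:**
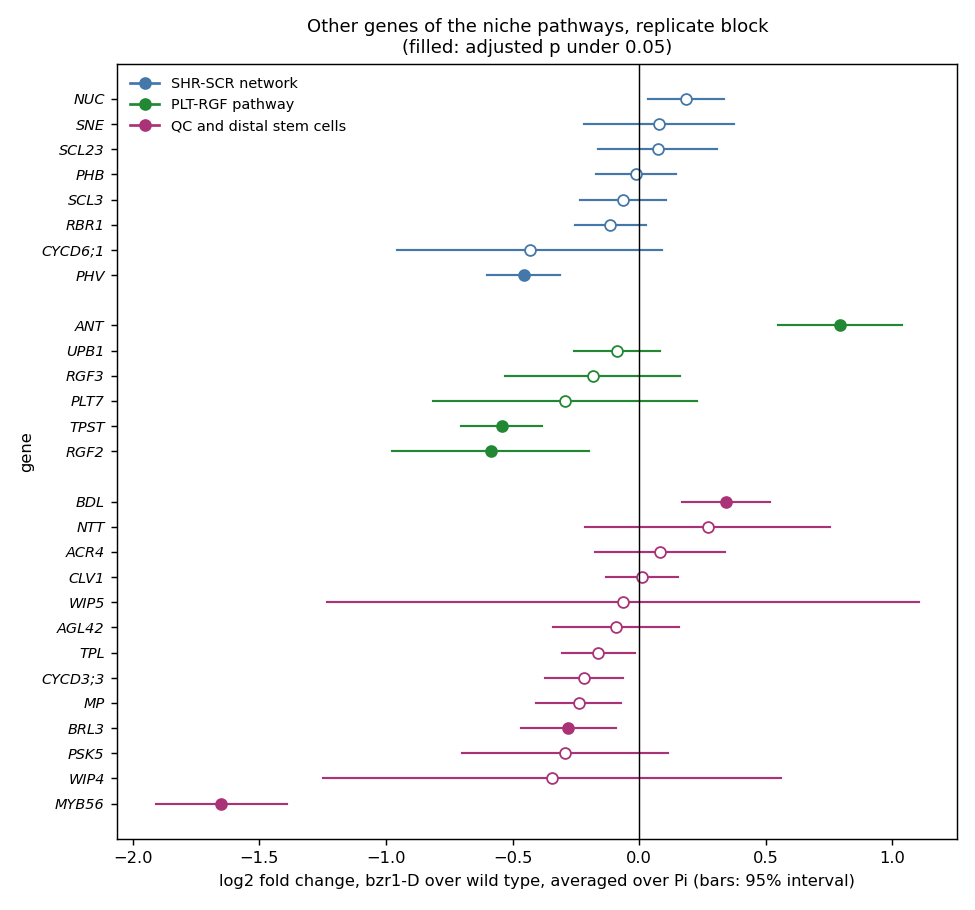
Log2 fold change of bzr1-D over wild type, averaged over Pi, for the tested genes of the SHR and SCR network, around the PLETHORA factors and of the quiescent centre and distal stem cells, from the edgeR fit with the replicate block. Bars are 95% intervals and filled points have an adjusted p under 0.05. MYB56 (-1.65) lies apart from the rest, and ANT (0.79) is the highest.

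Over the 8 libraries, the 5 features whose centred log2 CPM profile was most like the mean profile of the 9 members were AT2G38580, AT4G26870, NET1A, MSL9 and CER3, with root mean square differences of 0.0343 to 0.0498. The mean profile was itself nearly flat, between -0.26 (bzr1-D at low Pi, Exp 2) and 0.10 (wild type at low Pi, Exp 1). Among the members, SHR and JKD were nearest to each other (0.120) and SCR and WOX5 to each other (0.138). MGP was nearest to SHR, PLT1 to SCR, and BBM, the most distant, to JKD (0.281).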

How the data were processed

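Read counts per annotated feature for 8 libraries were deposited by the authors as whole numbers with no normalization. TopHat2 2.0.11, HTSeq 0.6.1, DESeq2 1.2.8 and the build TAIR10 are named, per the submitters' processing notes. The handling of strand and of multi-mapping reads was not given in the sources used here, and reads were 50-base single reads, per the labels' protocols. Genotype, Pi supply and Exp number came from the sample titles. The values of the strain and tissue tags are swapped in the labels.

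The test was edgeR 4.0.16 on R 4.3.3 (quasi-likelihood, robust, 1 coefficient per group over all 8 libraries, TMM, minimum count 10). Benjamini-Hochberg adjustment ran over all 20262 features, and a feature was called under 0.05. Standard errors are log2 fold changes divided by the square root of F, and residual degrees of freedom were 4. Same-numbered libraries deviated together from their group means (correlations of 0.29 to 0.64 in the 6 pairs of groups), so the Exp numbers, whose meaning the labels do not give, were taken to pair the libraries. The fit with this block had 3 residual degrees of freedom and a biological coefficient of variation of 0.0858, against 0.169 without it. Alternatives were DESeq2 1.42.0, limma-voom (limma 3.58.1), other scalings, no filter, and leaving out each library. DESeq2 and limma-voom with the block were chosen after seeing the data. The fit was tried on simulated counts.

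The members and gene lists were chosen with earlier results of these data known. Of 103 list entries, 96 matched the reference by name and the others were left out. SIEL, PLT5, RGF1, BRL1 and BRN1 were not analysed here. All 9 members were named. In the 3 pathway lists, called genes were named in the comparisons of genotype, and marker lists were given by sums and counts. Gene coordinates are those of the deposited table, matched to TAIR10.1 by locus for 31768 of 40246 features, of which 99.8% start within 2 kb of the reference. The starts of the 5′ ends in RefSeq lie upstream of those in the table for all 9 members. Intervals cover the spread between libraries as fitted, and the counts are reads, not molecules.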

Additional observations from a re-analysis of the deposited data

Results flagged for a closer look

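For 3 members the level at low Pi was above that at adequate Pi in both Exp numbers of wild type and below it in both of bzr1-D, and none of the differences passed the edgeR test of the difference itself (adjusted p of 1.00 for each). The difference, bzr1-D minus wild type, was -0.16 for SCR, -0.46 for PLT2 and -0.38 for WOX5 on the log2 scale. For PLT2 the bzr1-D response in Exp 1 was a step from 6.71 to 6.69 CPM, so that its sign rests on Exp 2. WOX5 stood on 26 to 38 counts a library. In Exp 1 its counts were equal at both supplies, 31 in wild type and 38 in bzr1-D. The signs of WOX5 in Exp 1 thus came from the library scaling alone.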

How the results depend on the processing

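The Exp number decided most calls. With the replicate block, 1 member was called at adequate Pi, 2 at low Pi and 5 averaged over Pi, against 0 without it. DESeq2 with the block called 2 members at low Pi and 2 averaged, and limma-voom with the block 1, 2 and 5. Over all features, the fit without the block called 404 between the genotypes at adequate Pi, 429 at low Pi and 1089 averaged, and 0 for each Pi response. With the block the counts were 1500, 1823 and 3090, and 17 (wild type), 4 (bzr1-D) and 30 (averaged) for Pi. DESeq2 gave 631 and 669 at the supplies and 28, 20 and 57 for Pi. DESeq2 with the block gave 1036, 1239 and 2216, then 71, 51 and 114, and 1 for the difference of the Pi responses. Limma-voom with the block gave 1392, 1702 and 3028, then 2 (wild type) and 36 (averaged). Without a filter on low counts, 1 feature was called for Pi averaged. Limma-voom with the block put PLT1 at adequate Pi at -0.0051, from 0.02. The cause of these shifts was not tested beyond the fits themselves.

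With single libraries left out, with or without the block, members called ranged from 0 to 1 (adequate Pi), 0 to 2 (low Pi) and 0 to 4 (averaged). All features called ranged from 173 to 1966, 182 to 1943 and 609 to 3428, and for Pi from 0 to 248 (wild type), 0 to 100 (bzr1-D), 0 to 346 (averaged) and 0 to 33 (difference). Uncalled log2 fold changes that took either sign were, for Pi in wild type, SHR (-0.114 to 0.0207), SCR (-0.0567 to 0.15), JKD (-0.0298 to 0.0794), MGP (-0.35 to 0.21) and BBM (-0.18 to 0.64). For Pi in bzr1-D they were SHR (-0.17 to 0.0752), SCR (-0.25 to 0.0032), MGP (-0.16 to 0.25), PLT1 (-0.57 to 0.0647), PLT2 (-0.76 to 0.15), PLT3 (-0.33 to 0.22) and WOX5 (-0.31 to 0.0865). Between the genotypes at adequate Pi they were SCR (-0.0541 to 0.16), MGP (-0.0578 to 0.51) and PLT1 (-0.31 to 0.33), at low Pi SCR (-0.24 to 0.0096), JKD (-0.0112 to 0.19), BBM (-0.74 to 0.10) and WOX5 (-0.24 to 0.15), and averaged SCR (-0.10 to 0.0286) and BBM (-0.24 to 0.18).

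With 2 libraries a group, fold changes of members at 1 supply carried standard errors of 0.11 to 0.30 on the log2 scale. With the block the standard errors were 0.08 to 0.28. Differences of this size were out of reach, and larger ones could also fail to pass. With the block, SHR at adequate Pi was at 0.23 ± 0.09, with an edgeR adjusted p of 0.214. WOX5 and PLT2, at the fewest counts, had the widest intervals along with BBM.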
